A study of Mus musculus with 22 samples.

Results

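The cDC1 marker genes examined here were the 8 genes Xcr1, Clec9a, Cadm1, Cd8a, Cd24a, Ifi205, Naaa and Ppt1, chosen by name out of 34047 genes in the deposited count table, together with 89 of 177956 accessible windows whose peak lies closest to one of them. Their RNA was read in all 16 RNA-seq libraries and their chromatin in 6 ATAC-seq libraries, an assay in which a transposase cuts accessible DNA. All cells came from Tbx21RFP-cre mice aged 6 to 10 weeks and homozygous for the knock-in allele, in which RFP is made by cells that express the transcription factor T-bet (Tbx21), so that cDC1s and both cDC2 groups carry the same allele. Dendritic cells negative for lineage markers, CD64 and Ly6C and positive for CD11c and MHCII were sorted into CD11b- XCR1+ cDC1s, CD11b+ XCR1- RFP+ cells (T-bet+ cDC2s) and CD11b+ XCR1- RFP- cells (T-bet- cDC2s), from pooled spleen or pooled mesenteric lymph node (MLN). The spleen gave 3 RNA libraries of each subset, and the MLN gave 3 of cDC1s and 2 of each cDC2 subset. ATAC-seq covered the spleen only, with 2 libraries of each subset. The methods state that each RNA library came from cells pooled from a pair of mice and call the replicates biological, while the labels do not tie libraries to animals, so p-values measure the spread between these libraries.

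Conventional dendritic cells fall into cDC1s, which depend on the transcription factors IRF8 and BATF3 and are known for taking up dead cells and presenting their antigens to CD8 T cells, and cDC2s, which are known mainly for priming CD4 T cells. The marker genes cover several functions. Xcr1 encodes the receptor for the chemokine XCL1, Clec9a a C-type lectin that binds actin exposed on dead cells, and Cadm1 an adhesion molecule. Cd8a encodes the CD8 alpha chain, which lymphoid-resident mouse cDC1s carry as a homodimer, and Cd24a a GPI-anchored surface glycoprotein. Ifi205 belongs to the interferon-inducible Ifi200 family, while Naaa and Ppt1 encode lysosomal enzymes that hydrolyse N-acylethanolamines and remove palmitate from proteins.

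In mm10, with positions from GENCODE M21, the genes lie at chr9:123852315-123862029 on the minus strand (Xcr1, ENSMUSG00000060509), chr6:129408862-129424763 on the plus strand (Clec9a, ENSMUSG00000046080), chr9:47530173-47857637 on the plus strand (Cadm1, ENSMUSG00000032076) and chr6:71373427-71379173 on the plus strand (Cd8a, ENSMUSG00000053977). Cd24a (ENSMUSG00000047139) lies at chr10:43578284-43584265 on the plus strand and Ifi205 (ENSMUSG00000054203) at chr1:174011998-174031810 on the minus strand. Naaa (ENSMUSG00000029413) lies at chr5:92257659-92278170 on the minus strand and Ppt1 (ENSMUSG00000028657) at chr4:122836242-122859175 on the plus strand. Exons of Clec9a overlap those of Clec1b on the same strand, exons of Ppt1 overlap those of Cap1 on the opposite strand, and Ifi205 sits among near-identical family members, so the counts of these 3 genes are uncertain to the extent that reads were shared or discarded.

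The sequences that carry the chromatin differences are windows of 150 bases around ATAC-seq summits, more accessible in cDC1s than in both cDC2 subsets. For each of the 6 genes with such a window, the one with the largest difference in its weaker comparison is shown, a choice made after the values were seen. Windows that reach into the gene are printed only up to its 5' end. The bases are from the RefSeq GRCm38.p6 genome, read 5' to 3' on the strand of the gene, and capitals mark a match to a searched motif.
Xcr1, chr9:123863318-123863467, minus strand, upstream of the gene: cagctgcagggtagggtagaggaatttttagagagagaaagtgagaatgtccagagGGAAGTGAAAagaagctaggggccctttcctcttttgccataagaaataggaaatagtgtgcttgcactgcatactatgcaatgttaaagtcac
Clec9a, chr6:129408793-129408861, plus strand, ending at the gene start: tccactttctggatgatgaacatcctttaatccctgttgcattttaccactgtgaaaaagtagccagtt
Cadm1, chr9:47755244-47755393, plus strand, intron: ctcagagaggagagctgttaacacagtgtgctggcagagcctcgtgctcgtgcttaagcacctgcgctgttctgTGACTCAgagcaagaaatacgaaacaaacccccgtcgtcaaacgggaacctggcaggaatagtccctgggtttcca
Cd8a, chr6:71373330-71373426, plus strand, ending at the gene start: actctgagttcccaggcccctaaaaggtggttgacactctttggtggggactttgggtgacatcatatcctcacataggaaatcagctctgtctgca
Ifi205, chr1:174031811-174031916, minus strand, ending at the gene start: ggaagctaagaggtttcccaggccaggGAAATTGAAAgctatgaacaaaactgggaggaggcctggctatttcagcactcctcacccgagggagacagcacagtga
Ppt1, chr4:122833247-122833396, plus strand, upstream of the gene: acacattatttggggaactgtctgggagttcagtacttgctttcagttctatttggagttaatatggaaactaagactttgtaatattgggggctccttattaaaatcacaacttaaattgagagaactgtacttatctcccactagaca
The Xcr1 window holds an EICE (GGAA and GAAA 2 bases apart, the composite element bound by PU.1 with IRF4 or IRF8), the Cadm1 window an AP-1 element (TGANTCA) and the Ifi205 window an ISRE (GAAA and GAAA 2 bases apart, the interferon-stimulated response element). The bases printed for Clec9a, Cd8a and Ppt1 match none of the 9 motifs searched.

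Total reads on genes ran from 20993220 to 27317480 per spleen library and from 22733964 to 29006549 per MLN library, and ATAC-seq reads in windows from 7270164 to 10081555. In the spleen the libraries fall into a pair of classes by how read counts relate to transcript GC content. One class, with a positive rank correlation, holds cDC1 replicates 1 and 2, T-bet- replicate 3 and all T-bet+ libraries, and the other holds the remaining libraries. In the MLN, cDC1 replicate 1 and T-bet+ replicate 1 stand apart in migratory dendritic cell markers, as given beside the MLN results. The sorted identities were read against cDC2 markers (Sirpa, Itgam, Irf4 and 9 others), whose summed level was 287 to 368 CPM in spleen cDC1s, 4864 to 6432 CPM in T-bet- cDC2s and 2326 to 2641 CPM in T-bet+ cDC2s. Levels are reads per 1000000 reads on genes or in windows (CPM) after TMM scaling. RNA fold changes come from edgeR's quasi-likelihood test with Benjamini-Hochberg adjustment over all genes tested, called at an adjusted p under 0.05. Of the 12 cDC2 markers, 11 were called lower in splenic cDC1s than in T-bet- cDC2s. Against T-bet+ cDC2s 10 were called lower and 1 higher in cDC1s. Between the cDC2 subsets 6 were called lower and 1 higher in T-bet+ cDC2s, so the sum weighs the subsets unequally. Itgam encodes CD11b, which gated the sort, and is not an independent check.

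In splenic cDC1s the lysosomal enzymes were by far the most abundant of these transcripts. Per kilobase of exon, Ppt1 stood at 1917 ± 276 RPKM (SD, n = 3) and Naaa at 788 ± 45.6, followed by Cd8a at 288 ± 36.5, Xcr1 at 214 ± 42.0 and Cd24a at 138 ± 12.6. Ifi205 at 84.9 ± 10.9, Cadm1 at 58.4 ± 22.2 and Clec9a at 54.8 ± 8.79 RPKM closed the order. Library ranges overlapped only between the neighbours Cd8a and Xcr1 and between Cadm1 and Clec9a. In MLN cDC1s the order per kilobase again began with Ppt1 (mean 1022 RPKM) and Naaa (487) and then ran Xcr1 (168), Cd24a (107), Cd8a (94.8), Ifi205 (86.1), Clec9a (38.1) and Cadm1 (18). There the ranges of neighbours overlapped except between Naaa (317 to 770 RPKM) and Xcr1 (99.9 to 274 RPKM) and between Clec9a (24.3 to 56.5 RPKM) and Cadm1 (13.1 to 24 RPKM).

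**Figure D1:**
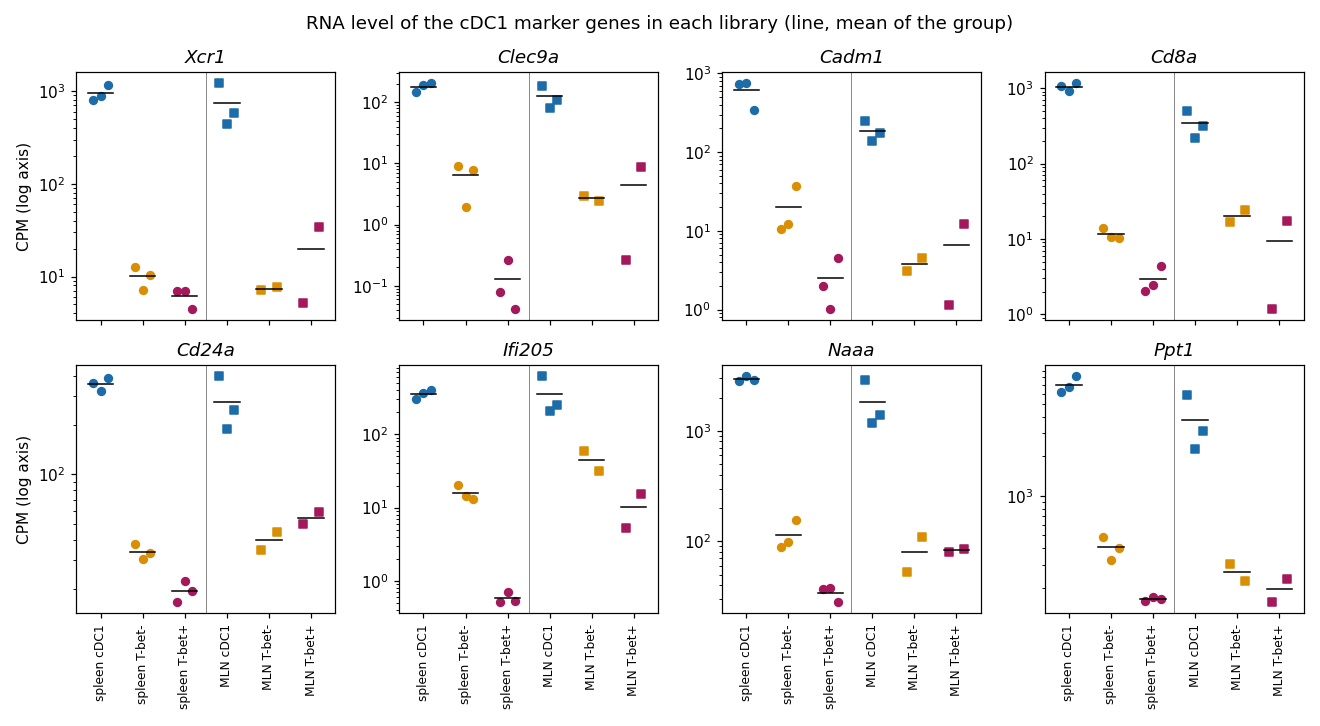
RNA level of each marker gene (CPM, log axis) in every spleen and MLN library, grouped by tissue and subset, with one point per library and a line at the group mean. In each tissue all cDC1 points lie above all cDC2 points for all 8 genes, and in the spleen all T-bet+ points lie below all T-bet- points.

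All 8 marker genes were higher in splenic cDC1s than in T-bet- cDC2s and than in T-bet+ cDC2s. Counts and medians over the 8 genes, here and below, include Xcr1, whose protein gated the sort. The share of all genes whose libraries separate between groups was not counted. Non-overlap, above and below, is therefore a description only. Against T-bet- cDC2s, 6.2% of the 14377 genes tested were called higher in cDC1s, and against T-bet+ cDC2s 8.2%. The median log2 fold change of the 8 genes was 4.75 against T-bet- cDC2s, where the median over all genes was 0.01, and 7.60 against T-bet+ cDC2s, where it was -0.03. Both comparisons use the same cDC1 libraries. In bulk libraries, fewer cells of a type and less RNA per cell cannot be told apart.

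Xcr1, whose protein was used to sort, served as a check of the sort and is not a finding. It stood at 806, 886 and 1162 CPM in cDC1 replicates 1 to 3, at 12.8, 7.09 and 10.3 CPM in T-bet- cDC2s and at 6.89, 7.01 and 4.44 CPM in T-bet+ cDC2s. All cDC1 libraries were above all cDC2 libraries, and the log2 fold changes were 6.56 ± 0.34 (SE) and 7.28 ± 0.35.

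Clec9a, the dead-cell receptor, stood at 148, 188 and 205 CPM in splenic cDC1s, and at 9.20, 1.95 and 7.93 CPM in T-bet- cDC2s. The T-bet+ libraries held only 2, 7 and 1 reads, or 0.0792, 0.262 and 0.0415 CPM. The 3 groups did not overlap. The log2 fold change of cDC1s was 4.82 ± 0.60 against T-bet- cDC2s (edgeR adjusted p = 5.80e-04) and 10.37 ± 0.81 against T-bet+ cDC2s (adjusted p = 2.96e-05).

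Cadm1, the adhesion molecule, was the most variable marker among splenic cDC1s, at 738, 750 and 342 CPM. It stood at 10.6, 12.1 and 37.5 CPM in T-bet- cDC2s and at 2.02, 1.01 and 4.48 CPM in T-bet+ cDC2s, and the 3 groups again did not overlap. The low cDC1 library and the high T-bet- library are the ones that depart from their group in library class, with the higher class at 738 and 750 CPM in cDC1s and 37.5 CPM in T-bet- cDC2s, and the lower class at 342 CPM and at 10.6 and 12.1 CPM. The part of library class in this spread was not tested beyond a fit that takes it as a term. The log2 fold change was 4.92 ± 0.70 against T-bet- cDC2s (adjusted p = 0.00123, edgeR), 4.61 with library class as a term, and 7.92 ± 0.81 against T-bet+ cDC2s (adjusted p = 1.55e-04).

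Cd8a, the co-receptor chain, stood at 1071, 904 and 1166 CPM in splenic cDC1s, at 13.8, 10.4 and 10.3 CPM in T-bet- cDC2s and at 2.02, 2.44 and 4.36 CPM in T-bet+ cDC2s. The groups did not overlap, and the log2 fold changes of cDC1s were 6.51 ± 0.35 and 8.47 ± 0.38 (edgeR adjusted p = 4.99e-06 and 1.85e-06). Cd8b1, the other chain of the CD8 heterodimer of T cells, stood at 2.51 to 3.72 CPM in the same cDC1 libraries. The T cell receptor complex genes Cd3e, Cd3d and Cd3g were each at 0 to 0.206 CPM there, and the summed level of the 8 T cell markers was 8.47 to 16.7 CPM in cDC1s, 12 to 16.9 CPM in T-bet- cDC2s and 29.8 to 41.3 CPM in T-bet+ cDC2s.

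Cd24a had the smallest differences between cDC1s and cDC2s of the 8 genes. The surface glycoprotein stood at 358, 323 and 388 CPM in splenic cDC1s, 37.5, 30.4 and 33.1 CPM in T-bet- cDC2s and 16.6, 22.3 and 19.4 CPM in T-bet+ cDC2s. The groups did not overlap. The log2 fold changes were 3.41 ± 0.21 and 4.19 ± 0.22 (adjusted p = 7.39e-06 and 3.00e-06, edgeR).

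Ifi205 stood at 306, 362 and 397 CPM in splenic cDC1s, 20.5, 14.4 and 13.1 CPM in T-bet- cDC2s and 0.515, 0.712 and 0.540 CPM in T-bet+ cDC2s, the last from 13, 19 and 13 reads. The 3 groups were fully separate, with log2 fold changes of cDC1s of 4.47 ± 0.26 and 9.22 ± 0.33 (edgeR adjusted p = 6.14e-06 and 1.17e-06). Of the 11 Ifi200 family genes tested in the spleen, Ifi205 included, 2 were called higher and 4 lower in cDC1s than in T-bet- cDC2s. The other gene called higher was Mnda, at 21.8 to 28.8 CPM in cDC1s, 4.01 to 5.25 CPM in T-bet- cDC2s and 0.225 to 0.515 CPM in T-bet+ cDC2s.

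The lysosomal enzyme genes had the most reads. Naaa stood at 2813, 3125 and 2854 CPM in splenic cDC1s, 89.3, 99.1 and 156 CPM in T-bet- cDC2s and 37.2, 37.5 and 28.1 CPM in T-bet+ cDC2s, with log2 fold changes of 4.67 ± 0.26 and 6.41 ± 0.29 (edgeR adjusted p = 5.23e-06 and 1.77e-06). Ppt1 stood at 6181, 6785 and 8161 CPM in cDC1s, 488, 325 and 400 CPM in T-bet- cDC2s and 158, 169 and 163 CPM in T-bet+ cDC2s, with log2 fold changes of 4.12 ± 0.20 and 5.43 ± 0.22 (edgeR adjusted p = 3.68e-06 and 1.25e-06). For both enzymes the 3 groups were separate and came in the same order. All 8 genes were called higher in cDC1s in both comparisons under each of 15 other settings.

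The marker genes differed between the cDC2 subsets as well. In the spleen 7 of the 8 genes were called lower in the T-bet+ subset, beside 3.44% of all genes tested. The largest differences were in Clec9a, which fell by 5.55 ± 0.72 on the log2 scale (edgeR adjusted p = 0.00251), and in Ifi205, which fell by 4.75 ± 0.28 (adjusted p = 4.43e-05). Cadm1 (-3.00 ± 0.66, adjusted p = 0.0302), Cd8a (-1.96 ± 0.30, adjusted p = 0.00548), Naaa (-1.74 ± 0.23, adjusted p = 0.00298) and Ppt1 (-1.31 ± 0.18, adjusted p = 0.0038) lay between. Cd24a was at -0.79 ± 0.19 (adjusted p = 0.0451), and Xcr1, the gene for the receptor that both cDC2 gates exclude, was at -0.71 ± 0.28 (adjusted p = 0.2, edgeR). The median over the 8 genes was -1.85, beside -0.01 over all genes.

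Not all of these calls were equally stable. Clec9a, Ifi205, Cd8a, Naaa and Ppt1 were called lower in T-bet+ cDC2s under all 15 other settings, Cadm1 under 12 and Xcr1 under none. Cd24a was called under 3, namely DESeq2, the DESeq2 size factors and the fit without T-bet- replicate 3. Cadm1 lost its call with the replicate block and without T-bet+ replicate 1 or 2. In the fit with library class as a term, Cadm1 was at -3.71 (edgeR adjusted p = 0.00144). Markers of other cells also differed between the cDC2 subsets, since the 6 macrophage markers summed to 1070 to 1501 CPM in T-bet- and 451 to 536 CPM in T-bet+ libraries, and their part in the marker gene differences was not tested.

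**Figure D2:**
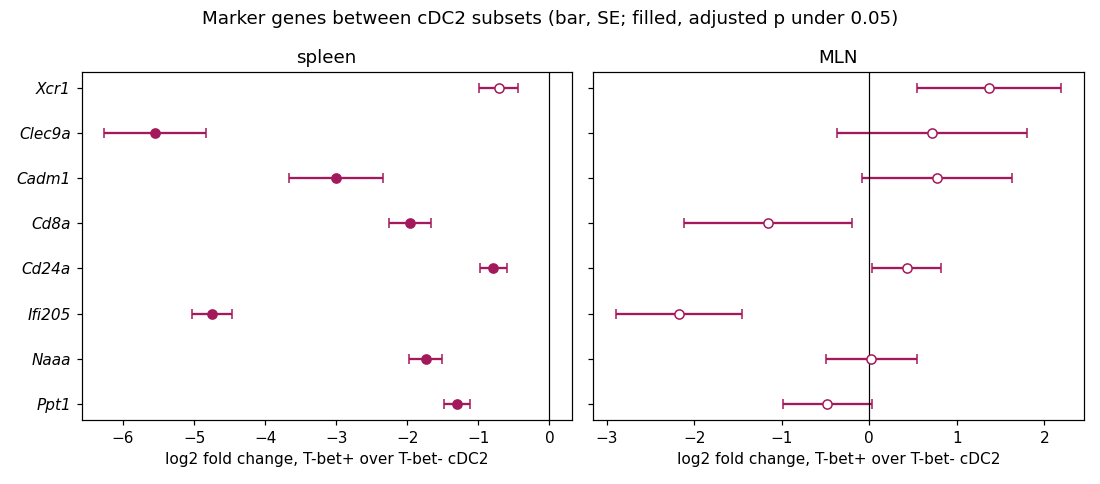
Log2 fold change of each marker gene between T-bet+ and T-bet- cDC2s in spleen (left) and MLN (right), with SE bars and filled points where the adjusted p was under 0.05. In the spleen all 8 points lie below 0 and 7 are filled, and in the MLN the points lie on both sides of 0 and none is filled.

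Set against the mean of splenic cDC1s, the marker genes in T-bet- cDC2s stood at 0.745% (Xcr1, replicate 2) to 10.5% (Cd24a, replicate 1), with medians over the 8 genes of 4.07%, 2.68% and 4.87% in the 3 libraries. In T-bet+ cDC2s the medians were 0.528%, 0.485% and 0.601%, and the range ran from 0.0230% for Clec9a to 6.24% for Cd24a. The genes therefore did not keep a fixed ratio to each other in cDC2 libraries. Cd24a stayed at 4.66% or more of its cDC1 level in every T-bet+ library, while Ifi205 was at 0.145% to 0.201%.

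**Figure D3:**
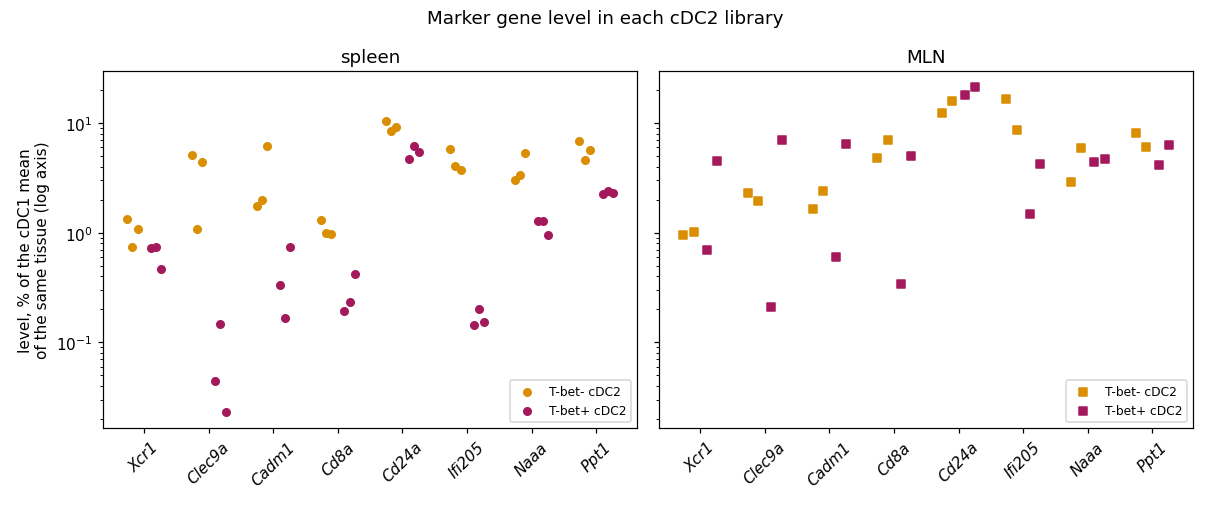
Level of each marker gene in every cDC2 library as a percent of the mean cDC1 level of the same tissue (log axis), spleen left and MLN right, with one point per library. In the spleen Clec9a and Ifi205 show the widest gaps between T-bet- and T-bet+ cDC2s, and Cd24a and Xcr1 the narrowest.

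In the MLN the marker genes were again high in cDC1s, but the libraries of a group differed more. Of the 8 genes, 6 were called higher in cDC1s than in T-bet- cDC2s and 7 higher than in T-bet+ cDC2s, while 1.44% and 2.11% of the 15298 genes tested were called higher. The median log2 fold changes were 4.25 and 4.79. Against T-bet- cDC2s, Cd8a (4.04 ± 1.03, edgeR adjusted p = 0.0632) and Ifi205 (2.94 ± 0.71, adjusted p = 0.0547) did not pass. Against T-bet+ cDC2s, Clec9a (4.78 ± 1.18, edgeR adjusted p = 0.0547) did not pass. These fits took subset as the only term. With the number in the library name as a replicate block, all 8 genes were called in both comparisons. Over all genes that block raised the calls in either direction from 885 to 2477 and from 952 to 2440. Leaving out a cDC2 replicate leaves 1 library in its subset, so such fits cannot show how far the counts rest on single libraries. Against T-bet- cDC2s the log2 fold changes lay between 2.23 (Ifi205) and 6.89 (Xcr1) over the 14 other settings. Against T-bet+ cDC2s, without T-bet+ replicate 2, the log2 fold change of Clec9a rose to 8.85, of Cd8a to 8.17, of Cadm1 to 7.34 and of Xcr1 to 7.15.

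The chemokine receptor gene Xcr1 was at 1219, 445 and 581 CPM in MLN cDC1s, at 7.19 and 7.65 CPM in T-bet- cDC2s, and at 5.19 and 34.0 CPM in T-bet+ cDC2s. Clec9a was at 186, 80.1 and 111 CPM in cDC1s, at 2.89 and 2.45 CPM in T-bet- cDC2s, and at 0.263 and 8.75 CPM in T-bet+ cDC2s, the last pair from 7 and 227 reads. For both receptors T-bet+ replicate 2 was the highest cDC2 library. Cadm1 was at 251, 137 and 175 CPM in cDC1s, 3.09 and 4.51 CPM in T-bet- cDC2s and 1.13 and 12.1 CPM in T-bet+ cDC2s, again highest among cDC2 libraries in T-bet+ replicate 2.

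Cd8a was at 502, 222 and 311 CPM in MLN cDC1s, 16.6 and 24.2 CPM in T-bet- cDC2s and 1.17 and 17.4 CPM in T-bet+ cDC2s. Cd24a was at 397, 188 and 246 CPM in cDC1s, 34.6 and 44.5 CPM in T-bet- cDC2s and 49.7 and 59.0 CPM in T-bet+ cDC2s. Cd24a was thus the marker whose T-bet+ libraries both lay above both T-bet- libraries, though the difference did not pass the test. Ifi205 was at 621, 207 and 250 CPM in cDC1s, 59.0 and 31.2 CPM in T-bet- cDC2s and 5.30 and 15.3 CPM in T-bet+ cDC2s, the one marker whose T-bet+ libraries both lay below both T-bet- libraries.

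Naaa was at 2867, 1178 and 1390 CPM in MLN cDC1s, 52.9 and 108 CPM in T-bet- cDC2s and 80.4 and 85.9 CPM in T-bet+ cDC2s. Ppt1 was at 5863, 2265 and 3137 CPM in cDC1s, 302 and 226 CPM in T-bet- cDC2s and 155 and 235 CPM in T-bet+ cDC2s. For all 8 genes every MLN cDC1 library was above every cDC2 library, and apart from Cd24a and Ifi205 the cDC2 subsets overlapped. How many of all genes separate in these ways was not counted.

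With subset as the only term, edgeR called 0% of genes tested and 0 of the 8 marker genes between the MLN cDC2 subsets. At an unadjusted p under 0.05 there were 1444 genes, and DESeq2 called 328 and none of the 8. Other edgeR fits called 554 genes without a filter on low counts, 130 with the library-name number as a replicate block, 131 with crossed numbers as the block and 14 with only the compared libraries. Ifi205 had the largest difference of the 8, at -2.17 on the log2 scale (edgeR adjusted p = 0.399), and was called without the filter (adjusted p = 0.000720) and with the crossed block (adjusted p = 0.0412). Leaving out T-bet+ replicate 2 turned the sign for Clec9a, which was at 0.72 with it and -3.34 without it, for Cadm1 (0.78 and -1.76) and for Xcr1 (1.37 and -0.53). The T-bet+ library then left shares its library-name number with no T-bet- library. Subset and library number cannot be told apart in that fit. In T-bet+ replicate 2 the cDC2 markers summed to 866 CPM, against 1811 CPM in T-bet+ replicate 1 and 2411 and 2552 CPM in T-bet- cDC2s, and their part in these values was not tested.

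Within MLN cDC1s, replicate 1 was highest for all 8 genes. It stood above the mean of replicates 2 and 3 by 1.61-fold (Cadm1) to 2.72-fold (Ifi205). In the same library Ccr7, the receptor that guides dendritic cells to lymph nodes, was at 2555 CPM against a mean of 9121 CPM in the others, and Fscn1, which encodes an actin-bundling protein of mature dendritic cells, was at 213 against 1344 CPM. Ccl22, Cd63, Socs2 and Il4i1 (under 1 CPM throughout) were also lower there, so that 6 of 6 migratory markers moved the opposite way to the marker genes. The summed macrophage markers were also lower there, at 74.7 CPM against 202 and 213 CPM, as were the 6 plasmacytoid dendritic cell markers, at 128 CPM against 330 and 306 CPM. Ccr7 differed likewise between the T-bet+ libraries, at 2172 CPM in replicate 1 and 7710 CPM in replicate 2. The part of these cells in the differences was not tested.

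Across tissues, 0 of the 8 marker genes were called between spleen and MLN cDC1s, where 11.7% of 16795 genes were called. Tissue and batch cannot be told apart. Cadm1 (1.70, adjusted p = 0.123), Cd8a (1.60, adjusted p = 0.0958) and Ppt1 (0.91, adjusted p = 0.0639) had the largest log2 differences toward the spleen by edgeR, and Ifi205 was at -0.02. DESeq2 called Cd8a and Ppt1 higher in the spleen, and without MLN cDC1 replicate 1 edgeR called Cd24a (0.78), Naaa (1.26) and Ppt1 (1.45), and without either MLN T-bet+ library Cd8a (1.62). In a test of whether the gap between cDC1s and T-bet- cDC2s differed between tissues, 0 of the 8 genes and 0.0357% of all genes were called by edgeR. The gap to T-bet+ cDC2s was larger in the spleen for all 8 genes, with a median difference of 2.56, beside -0.03 over all genes. Clec9a had the largest difference and was not called (5.58 ± 1.34, edgeR adjusted p = 0.161). Ifi205 alone of the 8 was called, with a difference of 4.10 ± 0.69 on the log2 scale (edgeR adjusted p = 0.0447), where 0.0893% of genes were called. That call was lost with the replicate block (adjusted p = 0.353, edgeR) and with any replicate left out other than MLN cDC1 replicate 1 or MLN T-bet+ replicate 1.

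To place the 8 genes beside other cDC1-associated genes, a list of 18 was read the same way, chosen like the markers with earlier results of these data known. Against T-bet- cDC2s in the spleen 17 of 18 were called higher in cDC1s, and against T-bet+ cDC2s also 17, with Batf3, a transcription factor required for cDC1 development, the exception in both. Irf8, the other transcription factor of the lineage, was at 2698 to 4028 CPM in splenic cDC1s, 153 to 447 CPM in T-bet- cDC2s and 50.5 to 76.2 CPM in T-bet+ cDC2s, and fell by 2.17 ± 0.37 on the log2 scale from T-bet- to T-bet+ cDC2s (edgeR adjusted p = 0.00979). Between the cDC2 subsets 7 of 18 were called, all lower in T-bet+ cDC2s, namely Irf8, Cd36, Gcsam, Pianp, Rab7b, Tlr11 and Tlr3. The list's median there was -1.14, beside -1.85 for the 8 marker genes. In the MLN 12 and 11 of the 18 were called higher in cDC1s and 0 between cDC2 subsets.

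The genes whose profile over the 16 libraries lay closest to each marker were sought among 16795 genes, by the root mean square difference of centred log2(CPM + 0.5) values. Plpp1, a lipid phosphate phosphatase gene, was closest to Xcr1 (0.55) and to Cd8a (0.64), and Gcsam, a signalling adaptor gene of germinal centre B cells, was closest to Clec9a (0.72). Cadm1 lay closest to Pdia5 (0.69), Cd24a to Fndc7 (0.40) and Ifi205 to Tlr12 (0.85). The lysosomal genes had the closest partners, Clnk for Naaa (0.38) and Pianp for Ppt1 (0.35). Among the 8 genes themselves the nearest pair was Naaa and Ppt1 (0.56) and the farthest Cd8a and Cd24a (1.75). The 16 libraries fall into subsets, so these profiles are not 16 independent points.

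Chromatin was also more accessible in cDC1s in part of the windows at most of the marker genes. Of the 89 windows 88 were tested, since 1 at Cadm1 had too few reads. Of these, 31 were called higher and 4 lower in cDC1s than in T-bet- cDC2s, at an adjusted p under 0.01 with a log2 fold change over 0.5 in either direction, and 43 were higher and 2 lower than in T-bet+ cDC2s. Over all 166547 windows tested, 10.6% and 12% were called higher and 7.32% and 11% lower. In both comparisons 28 windows were higher in cDC1s, namely 16 of 43 at Cadm1, 4 of 8 at Ifi205, 4 of 16 at Ppt1, 2 of 4 at Cd8a, 1 of 9 at Xcr1 and 1 of 5 at Clec9a, and none of 3 at Naaa or of 1 at Cd24a. The share of all windows called higher in both comparisons was not computed, and both comparisons use the same cDC1 libraries. The windows are not independent, since they lie in 40 peaks and 22 of them overlap another. The median log2 fold changes were 0.90 and 1.23. Without T-bet- replicate 1 the 35 windows called against T-bet- cDC2s became 21, and without cDC1 replicate 2 they became 23. Of the 28, 16 lay in introns and 6 upstream of the gene.

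The Ifi205 window at the gene start, whose sequence carries the ISRE, had 19.3 and 22.4 CPM in cDC1s, 1.46 and 3.51 CPM in T-bet- cDC2s and 0.754 and 2.28 CPM in T-bet+ cDC2s. Its log2 fold changes were 3.02 ± 0.31 (SE) and 3.76 ± 0.33 (edgeR adjusted p = 1.72e-12 and 3.36e-15). The cDC1 libraries were above all others, and the cDC2 subsets overlapped. A second window in its intron, 9785 bases from the 5' end, was at 3.77 and 3.62 CPM in cDC1s, 1.10 and 1.60 CPM in T-bet- cDC2s and 0.216 and 0.104 CPM in T-bet+ cDC2s, and differed between the cDC2 subsets (log2 fold change -3.00 from T-bet- to T-bet+, edgeR adjusted p = 0.00294).

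The Clec9a window at the gene start, whose peak lies as close to Clec1b, had 7.77 and 13.3 CPM in cDC1s, 1.95 and 1.81 CPM in T-bet- cDC2s and 0.862 and 0.104 CPM in T-bet+ cDC2s. It was more accessible in cDC1s by 2.48 ± 0.37 and 4.42 ± 0.46 on the log2 scale (edgeR adjusted p = 1.40e-07 and 1.46e-12). The 3 groups did not overlap, but the difference between the cDC2 subsets did not pass the test (-1.95, edgeR adjusted p = 0.015).

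The Xcr1 window, 1363 bases upstream, had 10.4 and 15.8 CPM in cDC1s, 6.22 and 6.62 CPM in T-bet- cDC2s and 2.80 and 2.38 CPM in T-bet+ cDC2s. The 3 groups were separate, with log2 fold changes of 1.02 ± 0.27 and 2.33 ± 0.30 (edgeR adjusted p = 0.00266 and 2.53e-09), and from T-bet- to T-bet+ cDC2s accessibility fell (-1.31, edgeR adjusted p = 0.00274). It was the one Xcr1 window of 9 called higher in cDC1s. Another Xcr1 window was called lower in cDC1s than in T-bet+ cDC2s, as was 1 window at Ppt1.

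At Cd8a the window across the gene start, whose peak lies as close to Gm44174, had 7.30 and 11.3 CPM in cDC1s, 1.34 and 1.30 CPM in T-bet- cDC2s and 0.970 and 2.28 CPM in T-bet+ cDC2s, with log2 fold changes of 2.79 ± 0.39 and 2.49 ± 0.37 (edgeR adjusted p = 2.16e-08 and 8.64e-08). A window 8411 bases downstream of the gene start, beyond the gene, behaved differently. It had 3.65 and 4.66 CPM in cDC1s, 0.732 and 0.802 CPM in T-bet- cDC2s and 2.16 and 4.56 CPM in T-bet+ cDC2s, and rose from T-bet- to T-bet+ cDC2s (2.11, edgeR adjusted p = 0.00103), with no call between cDC1s and T-bet+ cDC2s (0.30, adjusted p = 0.603).

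**Figure D4:**
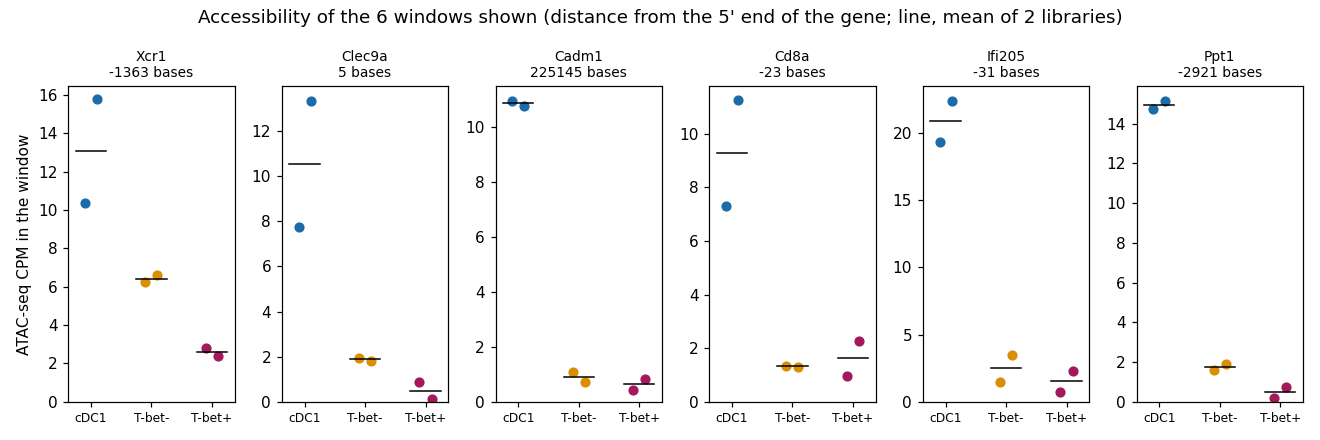
ATAC-seq level (CPM, linear axis from 0) in the 6 windows whose sequences are printed, with one point per library, a line at the mean of 2 libraries and the distance from the 5' end of the gene in each title. In all 6 windows both cDC1 libraries lie above all 4 cDC2 libraries. In the Xcr1, Clec9a and Ppt1 windows the T-bet- libraries lie between the cDC1 and the T-bet+ libraries.

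Ppt1 differed most upstream of the gene start. The window 2921 bases upstream had 14.7 and 15.1 CPM in cDC1s, 1.59 and 1.91 CPM in T-bet- cDC2s and 0.216 and 0.725 CPM in T-bet+ cDC2s, a log2 difference of 3.08 ± 0.34 and 4.93 ± 0.41 (edgeR adjusted p = 1.43e-11 and 2.98e-16). The window centred 26 bases upstream had more reads in every subset, at 22.7 and 28.9, 22.3 and 18.4, and 16.4 and 21.2 CPM, and was not called (0.34 and 0.45). In the same promoter region, the windows 312 bases upstream (1.11 and 1.72) and 686 bases downstream of the start (1.79 and 2.08) were called higher in cDC1s in both comparisons. A window 6666 bases upstream was open in cDC1s (6.94 and 10.7 CPM) and T-bet+ cDC2s (5.60 and 4.35 CPM) and lower in T-bet- cDC2s (1.83 and 1.40 CPM), so accessibility rose from T-bet- to T-bet+ cDC2s (1.62, edgeR adjusted p = 0.00136) while Ppt1 RNA was lower.

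Cadm1, the longest of the genes, held 43 of the 89 windows. The window 225145 bases into the gene, in an intron, had 10.9 and 10.7 CPM in cDC1s, 1.10 and 0.702 CPM in T-bet- cDC2s and 0.431 and 0.829 CPM in T-bet+ cDC2s, with log2 fold changes of 3.59 ± 0.40 and 4.07 ± 0.42 (edgeR adjusted p = 2.50e-11 and 9.01e-13). The window near the gene start differed less, at 47.9 and 39.1, 27.6 and 26.7, and 20.0 and 19.2 CPM (0.68 and 1.15, edgeR adjusted p = 0.00166 and 2.15e-07). All 4 windows lower in cDC1s than in T-bet- cDC2s also lay at Cadm1, and 3 of them, between 203650 and 204012 bases, fall in the same stretch of an intron. The last of these had 40.5 and 39.5 CPM in cDC1s, 71.4 and 62.3 CPM in T-bet- cDC2s and 59.9 and 51.8 CPM in T-bet+ cDC2s (-0.74, edgeR adjusted p = 1.30e-04 against T-bet- cDC2s).

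**Figure D5:**
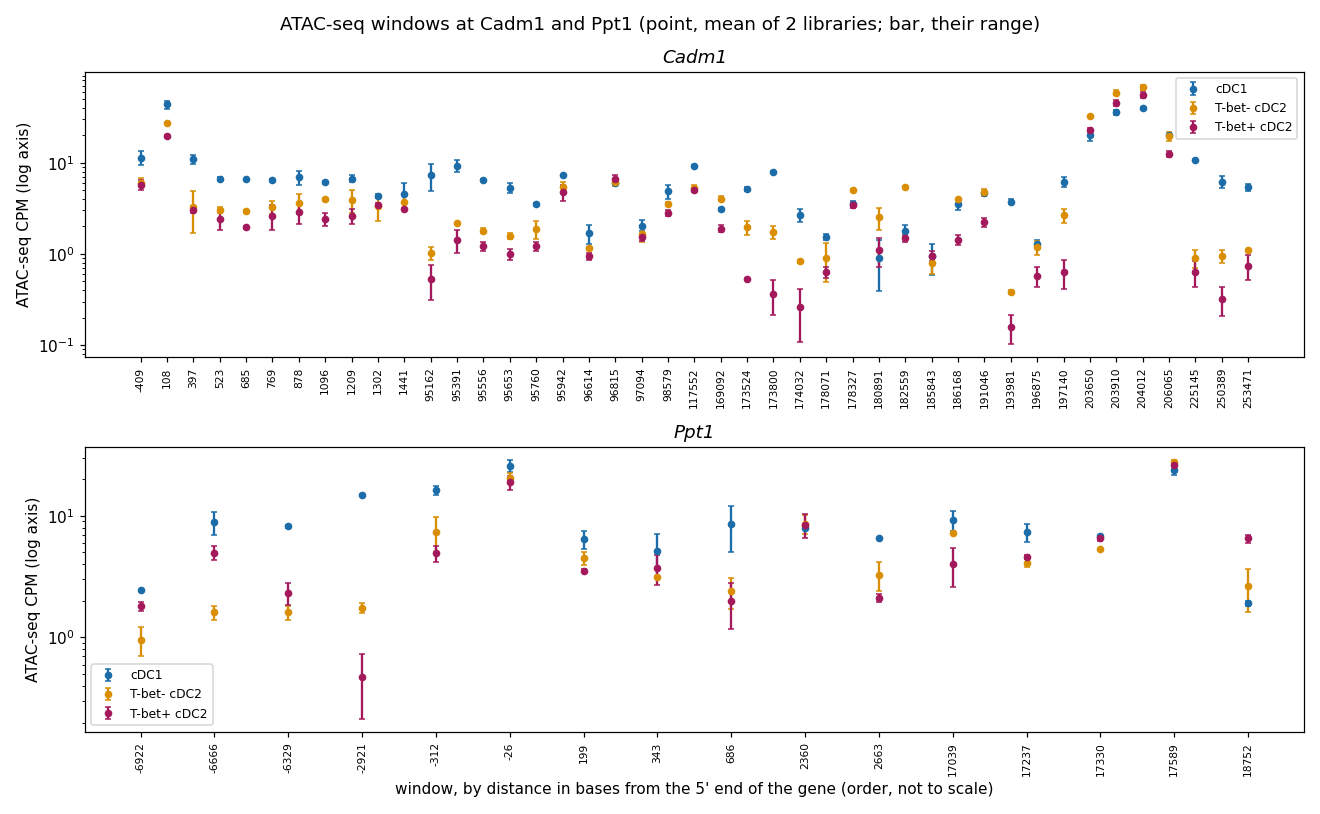
ATAC-seq level (CPM, log axis) in every window at Cadm1 (top) and Ppt1 (bottom), ordered by distance from the 5' end of the gene and not drawn to scale, with points at the mean of 2 libraries and bars for their range. At Cadm1 the cDC1 points lie above both cDC2 subsets at 108, 95162, 193981 and 225145 bases and below both at 204012, and at Ppt1 they lie far above at -2921 bases while the subsets lie close together at -26.

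Naaa and Cd24a had large RNA differences and few windows. The 3 Naaa windows lay in an intron 6932 to 7519 bases from the 5' end, and were called higher in cDC1s against T-bet+ cDC2s only (1.72 to 2.68 on the log2 scale). They share 1 peak, and 1 of them lay 1475 bases downstream of the nearest annotated transcript start of the gene. The one Cd24a window, 3164 bases upstream, had 1.77 and 3.49 CPM in cDC1s, 5.86 and 4.81 CPM in T-bet- cDC2s and 4.10 and 3.63 CPM in T-bet+ cDC2s. It was thus lowest in cDC1s, opposite in sign to the RNA, but not called (-1.03, edgeR adjusted p = 0.028). A window was assigned to the closest gene only, and elements farther away were not examined here.

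Between the cDC2 subsets 9 of the 88 windows were called, 6 lower and 3 higher in T-bet+ cDC2s, where 2.36% and 3.92% of all windows were called lower and higher. The 6 lower windows lay at Cadm1 (4), Ifi205 (1) and Xcr1 (1), and the 3 higher at Ppt1 (2) and Cd8a (1). The 3 higher windows are a share no larger than that of all windows. These counts were the least stable, since DESeq2 called none of the 88 windows and leaving out T-bet- replicate 2 left 1.

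Motif matches were counted on both strands as a description. Of the 89 windows, 8 held an EICE and 8 an AP-1 element (8.99% each), while 3.19% and 7.90% of all windows did. A PU.1 site (GAGGAAGT) was in 3 windows (3.37%), a Runx site (TGTGGTT) in 7 (7.87%), a C/EBP site (TTGCNNAA) in 7 (7.87%) and a T-box site (AGGTGTNA) in 4 (4.49%), where all windows had 5.50%, 5.23%, 5.89% and 1.92%. Of the 28 windows higher in cDC1s in both comparisons, 2 held an EICE, 2 an AP-1 element and 2 a T-box site. A Runx site, a C/EBP site and an ISRE were in 1 each, and a PU.1 site in 0. The ISRE of the Ifi205 window was the only ISRE among the 89 windows, beside 2.39% of all windows. The composite element of AP-1 and IRF factors with adjacent sites (GAAA directly before TGANTCA), which contains the AP-1 letters, was in 1 window at Cadm1, and its spaced form (TTTC, 4 bases, TGANTCA) in 0, beside 0.155% and 0.146% of all windows.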

How the data were processed

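Bulk RNA-seq (16 libraries) and ATAC-seq (6 libraries of 50000 cells) were analysed from counts deposited by the authors, without normalization. Per the submitters' processing notes and the paper's methods, the tools were HISAT2 2.1.0, SAMtools 1.9, Bowtie2 2.2.5, MACS2 2.1.1.20160309 and R 3.4.0, with the mm10 build. RNA reads were counted per GENCODE vM17 gene with Rsubread, and ATAC-seq reads in summit windows of 150 bases from peaks called on all replicates together. A strand setting for counting is not given in the sources used here. Other columns of the deposited peak and summit files were not used. One sentence of the methods gives the RFP signs of the cDC2 gates the other way round, and the labels were followed. The methods give 2 MLN replicates, while the labels give 3 MLN cDC1 libraries, all used.

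Features were kept by filterByExpr and scaled by TMM, and the quasi-likelihood test of edgeR 4.0.16 with Benjamini-Hochberg adjustment was fitted on the whole table, per tissue with subset as the only term (6 residual degrees of freedom in spleen, 4 in MLN), over all 16 RNA libraries between tissues (10), and over the 6 ATAC-seq libraries (3). The threshold on the adjusted p was 0.05 for genes and 0.01 for windows, which also had to differ by over 0.5 on the log2 scale. A window belonged to the gene closest to its peak within 50000 bases. RPKM values use merged exon length. Scripts were tested on simulated counts. No pair of replicates agreed within sampling noise. Same-numbered spleen libraries correlated from -0.71 to 0.40 in their deviations. In the MLN, libraries with the same number in their title correlated from -0.15 to 0.64, and those with the same number in their library name from -0.012 to 0.64. By library name, MLN cDC1 replicate 2 and T-bet- replicate 1 gave the -0.012, and the other pairs were at 0.15 to 0.64. As not every pair was over 0.1, numbers were not taken as pairs in the main fits. Replicate blocks were run as alternatives. Library class was set by the rank correlation of counts with transcript GC content, over 0.1 or not. The genes, lists, motifs and tests were chosen with earlier results of these data known. Named genes are the 8 markers, list members that passed or touch a marker result, and the 3 closest profiles per marker, of which the first is given. Alternatives were DESeq2 1.42.0, its size factors within edgeR, no filter, fewer libraries per fit, replicate blocks, library class as a term, each replicate left out, and for ATAC-seq library size only, whole peaks, a stricter threshold and windows within 10000 bases. Software was R 4.3.3 with limma 3.58.1, and Python 3.11.15 with numpy 2.4.6, pandas 2.3.3, matplotlib 3.10.9 and pysam 0.24.0.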

Additional observations from a re-analysis of the deposited data

Results flagged for a closer look

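The difference in Ifi205 RNA between cDC1s and T-bet+ cDC2s was larger in the spleen than in the MLN, by 4.10 ± 0.69 on the log2 scale in a test of the difference itself over all 16 RNA libraries (edgeR quasi-likelihood test, adjusted p = 0.0447). The direction was not particular to Ifi205. All 8 marker genes went the same way (median 2.56), as did all 18 other cDC1-associated genes (median 2.24), beside -0.03 over all genes. Ifi205 stood at 306 to 397 CPM in splenic and 207 to 621 CPM in MLN cDC1s, where the tissues overlapped. It stood at 0.515 to 0.712 CPM in splenic and 5.30 and 15.3 CPM in MLN T-bet+ cDC2s, which did not overlap. The T-bet- libraries did not overlap between tissues either, at 13.1 to 20.5 CPM in the spleen and 31.2 and 59.0 CPM in the MLN. The call was lost with the replicate block and with any replicate left out other than MLN cDC1 replicate 1 or MLN T-bet+ replicate 1. Ccr7 and the other migratory markers also differed between the MLN T-bet+ libraries, and their part in this difference was not tested. Tissue and batch cannot be told apart.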

How the results depend on the processing

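All 8 marker genes were called higher in splenic cDC1s in both comparisons under every alternative run. In the spleen 5 to 7 genes were called between the cDC2 subsets with each replicate left out, where 307 to 1257 of all genes were called. In the MLN, leaving out a cDC2 replicate leaves 1 library in its subset, so such fits cannot show how stable the counts are. Across all alternatives the 8 genes stayed higher in cDC1s in both comparisons. With the replicate block by title number the count against T-bet+ cDC2s was 4, where 539 of all genes were called. With the replicate block by library-name number the counts against T-bet- and T-bet+ cDC2s were both 8. Over all genes that block moved the calls from 885 to 2477, from 952 to 2440 and, between the MLN cDC2 subsets, from 0 to 130. Between these subsets no filter on low counts gave 1 of the 8 genes, the crossed replicate block, added after seeing the data, also 1, and leaving out replicates 0. For cDC1s of spleen against MLN, 2 genes were called by DESeq2, 3 without a filter and 2 with only the cDC1 libraries. Over all genes these settings called 3513, 3397 and 1225, beside 1961 in the main fit. For the difference between tissues, no filter gave 1 gene against T-bet- cDC2s, where 261 of 34047 genes were called. Against T-bet+ cDC2s DESeq2 gave 5, no filter 7 and the replicate block 0. Over all genes these settings called 234, 475 and 0, beside 15 in the main fit.

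The count of windows higher or lower in cDC1s than in T-bet- cDC2s, 35, was 23 at the stricter threshold and 21 of 40 as whole peaks, and 21 to 37 with a replicate left out, lowest without T-bet- replicate 1 and 23 without cDC1 replicate 2. Against T-bet+ cDC2s, 45 became 23 whole peaks and 32 to 44 with a replicate left out. Between the cDC2 subsets, 9 became 1 at the stricter threshold, 0 by DESeq2, 5 with only the compared libraries, and 1 to 9 with a replicate left out (5 without T-bet- replicate 1 or T-bet+ replicate 2). The drop in whole peaks reflects fewer features. The cause of the other changes was not tested. Scaling by library size alone moved the share of called windows that were higher from 52.1% to 64.4% for cDC1s against T-bet+ cDC2s, with a shift of 0.18 in the median log2 fold change, and from 62.4% to 52.8% for T-bet+ against T-bet- cDC2s.

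Among alternatives that kept all libraries, the sign turned for Naaa between the MLN cDC2 subsets (-0.082 with the replicate block by library name, -0.24 with library class as a term), Clec9a there (-0.57 with the crossed block), Ifi205 between cDC1s of the tissues (0.064 with the replicate block) and the Ppt1 window at 17589 bases (0.041 with library size only).

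With each replicate left out in turn, the log2 fold change between the MLN cDC2 subsets ran from -0.38 to 0.61 for Naaa, -1.76 to 1.69 for Cadm1, -3.34 to 1.74 for Clec9a and -0.53 to 2.22 for Xcr1. Between cDC1s of the tissues Ifi205 ran from -0.30 to 0.70. The tissue difference of the gap to T-bet- cDC2s ran from -0.36 to 0.53 for Xcr1, -0.99 to 0.12 for Cadm1 and -0.39 to 0.76 for Naaa. Among windows, cDC1s against T-bet- cDC2s ran from -0.38 to 0.012 at Cadm1 186168 and -0.95 to 0.25 at Ppt1 18752, and against T-bet+ cDC2s from -0.15 to 0.93 at Cd8a 8411. T-bet+ against T-bet- cDC2s ran from -0.30 to 0.070 at Ppt1 -26, -0.53 to 0.020 at Clec9a 12600, -1.74 to 0.054 at Ifi205 -31, -1.22 to 0.13 at Xcr1 -1073, -0.0088 to 0.41 at Xcr1 9917, -0.20 to 0.037 at Ppt1 17589 and -0.44 to 0.78 at Cd8a -23.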
